A study of Mus musculus with 12 samples.

Results

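The nuclear factor kappa B (NF-kB) and tumour necrosis factor (TNF) receptor genes were followed in whole kidneys of the mouse after ischemia-reperfusion. The group holds 10 genes taken by symbol from the 23420 genes of the count table: the Rel subunits Nfkb1, Nfkb2 and Relb, the IkB-family genes Nfkbia, Nfkbiz and Bcl3, the ubiquitin-editing enzyme gene Tnfaip3, the receptors Tnfrsf1a and Tnfrsf12a, and the adhesion molecule Icam1. They were taken by name and not by a threshold on their values, although earlier results of these data were known, and every one of the 10 was present in the table. The kidneys came from adult male C57BL/6J mice, with 4 control kidneys and 8 ischemic kidneys in 2 sets of 4. The controls were kidneys removed at nephrectomy, and the ischemic kidneys were taken 24 h after the renal pedicle was released. The study's methods also describe surgery to place the clamp before the ischemia. Effects of that surgery and of the time after it cannot be told apart here from those of clamping. The protocol label gives 20 min of clamping, and the control kidneys carry the same label. The labels contradict each other on anaesthesia. The kidneys titled as anaesthetised carry a group entry for conscious mice, and those titled as conscious carry an entry for anaesthesia. These are therefore called ischemia set A (titled anaesthetised) and ischemia set B (titled conscious), and no direction is given to anaesthesia. Each library is a separate kidney, and the sources used here do not say whether any control kidney was the partner of an ischemic one.

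NF-kB is a family of dimeric transcription factors built from the Rel subunits. In resting cells, IkB proteins hold the dimers in the cytoplasm. Ligands such as TNF, acting through their receptors, adaptor proteins and the IkB kinase (IKK) complex, cause the IkB proteins to be degraded, so that the dimers enter the nucleus. Many of the genes they switch on, among them those of IkB alpha and A20, restrain the pathway, and others encode adhesion molecules and chemokines. In the injured kidney, the pathway is known for its part in inflammation and in tubular cell survival.

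Dimers of the Rel subunits bind the kappa B consensus, a motif of 10 bases, and the promoters of the genes are shown first because the members include both the subunits and their known targets. The windows ran from 250 bases before to 50 bases after each RefSeq transcription start and were taken from RefSeq on the GRCm38.p6 assembly. Windows were found for 7 of the 10 genes. Nfkb1, Relb and Nfkbiz had none in the table. Both strands were searched. The consensus was matched in 4 of these 7 genes, Nfkb2, Nfkbia, Tnfaip3 and Bcl3, and in 6 of their 10 windows, against 8.46% of all 32851 windows and 9.55% of all 27025 genes with a window. Of the Nfkb2 windows, numbers 2 and 3 overlap and share 1 matched site, GGGACTTTCC, which is counted in both. The first window of each of the 4 genes follows, 5′ to 3′, with the matched bases in capitals.
Nfkb2: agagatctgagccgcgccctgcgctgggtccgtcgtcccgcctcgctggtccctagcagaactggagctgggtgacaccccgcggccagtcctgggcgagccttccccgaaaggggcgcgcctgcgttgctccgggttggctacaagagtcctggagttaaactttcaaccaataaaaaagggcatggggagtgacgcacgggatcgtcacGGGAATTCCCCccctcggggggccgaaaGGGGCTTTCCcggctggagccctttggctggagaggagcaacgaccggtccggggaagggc
Nfkbia: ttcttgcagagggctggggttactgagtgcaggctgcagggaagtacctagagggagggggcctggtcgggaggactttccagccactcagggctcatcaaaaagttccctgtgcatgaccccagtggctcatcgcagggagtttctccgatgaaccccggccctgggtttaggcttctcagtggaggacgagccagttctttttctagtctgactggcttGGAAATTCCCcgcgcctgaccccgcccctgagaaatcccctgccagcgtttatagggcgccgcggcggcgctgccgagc
Tnfaip3: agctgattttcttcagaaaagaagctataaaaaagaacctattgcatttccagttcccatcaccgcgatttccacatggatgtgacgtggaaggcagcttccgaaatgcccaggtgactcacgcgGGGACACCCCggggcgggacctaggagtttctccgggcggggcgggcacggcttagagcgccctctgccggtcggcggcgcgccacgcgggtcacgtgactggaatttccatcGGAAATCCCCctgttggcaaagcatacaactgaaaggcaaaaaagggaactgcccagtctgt
Bcl3: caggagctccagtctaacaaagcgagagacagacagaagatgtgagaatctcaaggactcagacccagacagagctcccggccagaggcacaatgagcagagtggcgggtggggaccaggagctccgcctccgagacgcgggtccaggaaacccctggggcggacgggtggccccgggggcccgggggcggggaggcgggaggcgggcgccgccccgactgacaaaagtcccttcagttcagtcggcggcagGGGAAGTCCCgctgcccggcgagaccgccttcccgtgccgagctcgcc
The Nfkb2 window lies at chr19:46304487-46304786 on the plus strand. It holds 3 match starts, and 2 of these overlap in 1 run, GGGAATTCCCC, that begins 39 bases before the start. The third, GGGGCTTTCC, begins 11 bases before it. Only 0.186% of all windows had 3 or more match starts. The Nfkbia window, at chr12:55492598-55492897 on the minus strand, holds GGAAATTCCC from 29 bases before the start. The Tnfaip3 window, at chr10:19015361-19015660 on the minus strand, holds 2 matches, and the nearer, GGAAATCCCC, begins 12 bases before the start. The Bcl3 window, at chr7:19822706-19823005 on the minus strand, holds GGGAAGTCCC just inside the transcript. No exact match to the pattern searched, GGGRNNYYCC (R is A or G, Y is C or T, N is any base), was found in the windows of Tnfrsf1a, Tnfrsf12a and Icam1. The Icam1 window does hold TGGAAATTCC, which departs from the pattern in its first base only. The lack of an exact match therefore does not show that a promoter lacks a kappa B site. The RefSeq start used for Icam1 lies upstream of its GENCODE start, so that its window reaches only a few bases into the GENCODE transcript. A match is a run of letters and was not measured as a bound site.

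Sequencing depth and tissue composition bear on all the values below. The libraries held 15367342 to 44793350 counts, and 11664 genes were tested. Levels are given in CPM, counts scaled to a common library size and corrected for composition, and changes were tested by quasi-likelihood in edgeR, with p-values adjusted after Benjamini and Hochberg over all genes tested and a threshold of 0.05. The summed level of 6 proximal tubule markers ranged from 6550 to 7303 CPM in the controls, then from 688.3 to 1266 CPM (set A) and from 400.2 to 1310 CPM (set B), and all 6 passed the test as lower in both sets. The 7 measured macrophage and monocyte markers summed to 50.96 to 69.93 CPM in the controls, against 12.02 to 31.61 CPM (set A) and 13.01 to 35.04 CPM (set B). Among these, Csf1r fell in both sets and Cd14 rose. Neutrophil markers (6 measured) summed to 0 in every control and reached 2.665 CPM at most in an ischemic kidney, and none had enough counts to be tested. The 3 pan-leukocyte markers summed to 2.584 to 7.873, 2.167 to 10.37 and 0 to 14.4 CPM in the controls, set A and set B, and neither of the 2 that were tested passed. In whole-kidney RNA, more cells of a type and more RNA per cell cannot be told apart, and the part of these shifts in the changes described here was not tested.

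Across the 10 genes, 4 rose in set A (Nfkb1, Nfkb2, Nfkbia and Nfkbiz) and 5 rose in set B (the same 4 and, near the threshold, Tnfrsf12a), and none fell. Among all genes tested, 10.5% passed as higher and 11.7% as lower in set A, and 10.9% and 11.9% in set B. The median log2 fold change of the 10 genes was 2.27 (set A) and 1.93 (set B), beside medians of −0.0159 and −0.018 over all genes tested. Every one of the 10 passed the filter on low counts. However, 4 of them (Tnfaip3, Bcl3, Icam1 and Tnfrsf1a) had fewer than 4 controls above the cutoff of the filter and passed with the help of ischemic kidneys. The filter thus favours higher values after ischemia among them, and the medians are a description only. Both sets were compared with the same 4 controls and are thus not independent of each other.

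**Figure D1:**
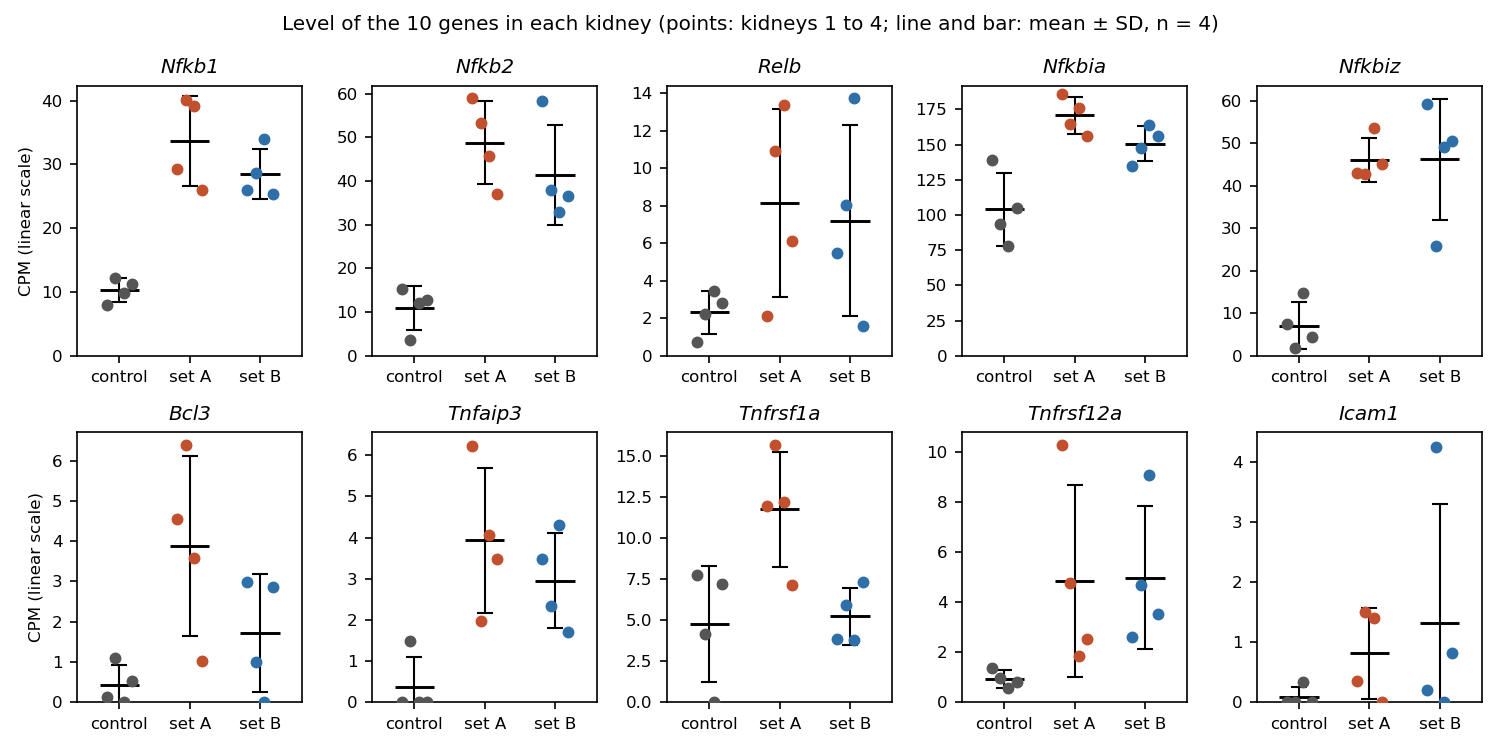
Level of each of the 10 genes in every kidney, in CPM on a linear axis that starts at 0. Points are kidneys, and the horizontal line and bar give the mean ± SD of 4 kidneys in the controls, set A and set B. The ischemic kidneys of both sets lie above all controls for Nfkb1, Nfkb2, Nfkbiz, Tnfaip3 and Tnfrsf12a, while the groups overlap for Relb, Bcl3, Tnfrsf1a and Icam1.

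Among the Rel subunits, Nfkb1 encodes p105, the precursor of the DNA-binding subunit p50, and lies at chr3:135584655-135691547 on the minus strand (mm10). Its level was 7.91, 12.1, 9.88 and 11.3 CPM in control kidneys 1 to 4, then 29.3, 40.0, 39.1 and 25.95 CPM in the kidneys of set A. Set B followed with 26.1, 28.7, 34.0 and 25.3 CPM. The lowest ischemic kidney was more than 2 times the highest control, and the kidneys of the 2 sets interleaved. The log2 fold change was 1.70 (SE 0.26, adjusted p = 5.28e-05) for set A and 1.47 (SE 0.26, adjusted p = 0.000248) in set B, or 3.26-fold and 2.77-fold.

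Nfkb2 encodes p100, which is processed to p52 in the non-canonical branch of the pathway, and lies at chr19:46304320-46312385 on the plus strand. The 4 controls stood at 15.3, 3.61, 12.1 and 12.8 CPM, set A at 59.0, 53.2, 45.7 and 37.0 CPM and set B at 58.4, 37.9, 32.9 and 36.6 CPM. Every ischemic kidney was above every control, and control 2 was the lowest of the 12. Nfkb2 rose by 2.16 on the log2 scale in set A (SE 0.34, adjusted p = 8.94e-05) and by 1.92 in set B (SE 0.34, adjusted p = 0.000276). Of its exon bases, 18.1% are shared with genes annotated on the opposite strand, and the strand setting of the counting is not given in the sources used here. These genes are AC114539.1, for which no value was used here, and Psd. Control values of Psd were 3.164 to 9.064 CPM, those of set A 0.573 to 1.668 CPM and those of set B 0 to 0.696 CPM, and it was lower by the test in set B alone (adjusted p = 0.0347, against 0.272 in set A).

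Relb, the transcriptional partner of p52, lies at chr7:19606217-19629438 on the minus strand. It was at 0.767, 2.24, 3.47 and 2.82 CPM in the controls, at 2.13, 10.9, 13.4 and 6.14 CPM in set A, and set B at 5.49, 8.03, 13.7 and 1.59 CPM in set B. In each set, 1 kidney (set A 1 and set B 4) lay within the control range, while the other 3 lay above it. The log2 fold changes of 1.80 (SE 0.73, adjusted p = 0.0875) and 1.63 (SE 0.73, adjusted p = 0.122) did not pass the test. Without set A kidney 1 the adjusted p in set A was 0.0475, and without set B kidney 4 that in set B was 0.0488.

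The remaining subunits were examined as their partners. Rela, which encodes the transactivating subunit p65, averaged 17.3 ± 3.79 CPM in the controls (SD, n = 4), against 44.3 ± 8.02 CPM for set A and 33.5 ± 5.25 CPM for set B. It rose by 1.36 on the log2 scale in set A (SE 0.24, adjusted p = 0.000236) and by 0.96 in set B (SE 0.24, adjusted p = 0.00513). Rel, the gene of c-Rel, had 19 counts in set A kidney 4 and 0 counts in the other 11 kidneys, and was not tested.

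In the IkB family, Nfkbia encodes IkB alpha, the inhibitor that is degraded and rapidly resynthesised when the pathway is active, and lies at chr12:55489410-55492647 on the minus strand. It was the most abundant of the 10 genes, at 139.2, 93.4, 78.4 and 104.8 CPM in the controls, 186.2, 164.6, 175.8 and 156.3 CPM in set A, then 134.7, 147.8, 164.2 and 155.8 CPM in set B. Set A lay wholly above the controls, whereas set B kidney 1 fell below control 1. Nfkbia changed least of the genes that passed the test, by 0.72 on the log2 scale in set A (SE 0.16, adjusted p = 0.00233) and 0.54 in set B (SE 0.16, adjusted p = 0.0194), or 1.64-fold and 1.45-fold. The call in set B was lost without control 2, 3 or 4 or without set B kidney 3, with adjusted p from 0.0509 to 0.0867.

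Nfkbiz encodes IkB zeta, a nuclear member of the family that acts as a cofactor at selected targets, and lies at chr16:55811375-55838899 on the minus strand. Control kidneys 1 to 4 were at 7.48, 1.82, 14.8 and 4.44 CPM. Set A was at 42.9, 42.7, 53.7 and 45.1 CPM, and set B at 59.3, 25.9, 49.2 and 50.5 CPM. The controls themselves spread widely (coefficient of variation 78.7%), and yet all 8 ischemic kidneys, with a coefficient of variation of 21.5%, lay above them. Nfkbiz rose 6.49-fold in set A (log2 2.70, SE 0.44, adjusted p = 0.000113) and 6.51-fold in set B (log2 2.70, SE 0.44, adjusted p = 0.000111), the highest fold changes among the 10 genes that passed the test in either set. Without control 3, the highest of the controls, the log2 fold change was 3.33 in each set.

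Bcl3, a nuclear IkB protein that binds p50 and p52 homodimers, lies at chr7:19808462-19822770 on the minus strand and was scarce. Of its exon bases, 6.51% are shared with the opposite-strand gene Gm16175. It had 3, 42, 0 and 20 counts in the controls, 143, 149, 163 and 17 counts in set A and 89, 16, 0 and 45 counts in set B. In CPM, 3 kidneys of set A (3.59 to 6.37) and 2 of set B (2.856 and 2.997) exceeded the highest control (1.09), and the others did not. The log2 fold changes of 3.12 (SE 1.55, adjusted p = 0.177) in set A and 1.94 (SE 1.48, adjusted p = 0.427) in set B did not pass the test. They ranged from 2.69 to 4.08 (set A) and from 1.51 to 2.89 (set B) when 1 library was left out.

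Tnfaip3 encodes A20, a ubiquitin-editing enzyme that shuts down signalling from the TNF receptor, and lies at chr10:19000910-19015657 on the minus strand. Its counts were 0, 57, 0 and 0 for the controls, 196, 46, 185 and 58 in set A, then 103, 37, 89 and 27 in set B. A count of 0 allows up to 3 counts, or 0.0661 to 0.19 CPM depending on the library. After normalisation every ischemic kidney was above every control, with 1.97 to 6.22 CPM (set A) and 1.71 to 4.30 CPM (set B) against 1.48 CPM for control 2. The log2 fold changes, 3.37 (SE 1.53, adjusted p = 0.133) and 2.96 (SE 1.504, adjusted p = 0.184), did not pass the test. Without control 2 the controls left were all at 0 counts, the fitted log2 fold changes of 9.68 (set A) and 9.25 (set B) then depended on the prior count, and the adjusted p was 0.000882 and 0.00117. With all libraries DESeq2 gave an adjusted p of 0.0416 (set A) and 0.0814 (set B).

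Of the receptors, Tnfrsf1a encodes TNFR1, the widely expressed receptor of TNF, and lies at chr6:125349362-125362484 on the plus strand. It was at 7.77, 4.18, 0 and 7.18 CPM in the controls, 11.99, 15.7, 12.2 and 7.16 CPM in set A, then 3.84, 5.95, 3.82 and 7.36 CPM in set B. In set A, 3 kidneys were above all controls, and set B lay within the control range throughout. Control 3 had 0 counts where the other controls had 161 to 275. Neither the set A change (log2 1.30, SE 0.83, adjusted p = 0.326) nor that of set B (log2 0.13, SE 0.82, adjusted p = 0.954) passed the test, and the sign in set B turned in 2 of the 8 fits that left out a library.

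Tnfrsf12a encodes Fn14, the receptor of the cytokine TWEAK, known to be induced in injured tissue, and lies at chr17:23675445-23677468 on the minus strand. The controls were at 1.39, 0.961, 0.579 and 0.810 CPM, set A at 10.3, 4.79, 1.85 and 2.53 CPM and set B at 2.63, 4.68, 9.09 and 3.55 CPM. All 8 ischemic kidneys were above all controls, with a 5.57-fold range between the highest (set A 1) and the lowest (set A 3). The changes were nearly equal, at 5.199-fold in set A (log2 2.38, SE 0.85, adjusted p = 0.0513) and 5.32-fold in set B (log2 2.41, SE 0.85, adjusted p = 0.0476), and they lay on either side of the threshold. When 1 library was left out, the log2 fold change ranged from 1.73 to 2.66 in set A and from 1.93 to 2.65 in set B. In set B the call was lost without any 1 of the controls and without set B kidney 2 or 3, with adjusted p up to 0.169. It was also lost with no filter on low counts (0.0848), with only the 2 groups in the fit (0.069) and with a replicate block (0.0863). In set A the call was gained in 5 of the 14 alternatives run, among them the fits without kidney 3 (adjusted p = 0.0409) or kidney 4 (adjusted p = 0.0464).

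Icam1, an adhesion molecule of endothelium and injured epithelium that leukocytes bind, lies at chr9:21015985-21028817 on the plus strand and was the least abundant of the 10. It shares 11.7% of its exon bases with the opposite-strand gene Gm47079. The controls had 0, 0, 9 and 0 counts, set A 11, 35, 64 and 0 counts and set B 6, 67, 0 and 13 counts. The groups overlapped, and 1 kidney of each ischemic set had no count. With log2 fold changes of 3.18 (SE 2.38, adjusted p = 0.426) and 3.86 (SE 2.46, adjusted p = 0.316), the change of Icam1 did not exceed the spread between kidneys. Without set B kidney 2 the value of set B was 1.91 (adjusted p = 0.719). Without control 3, which left all controls at 0 counts, the fitted values were 7.46 and 8.15 (adjusted p = 0.118 and 0.0952).

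**Figure D2:**
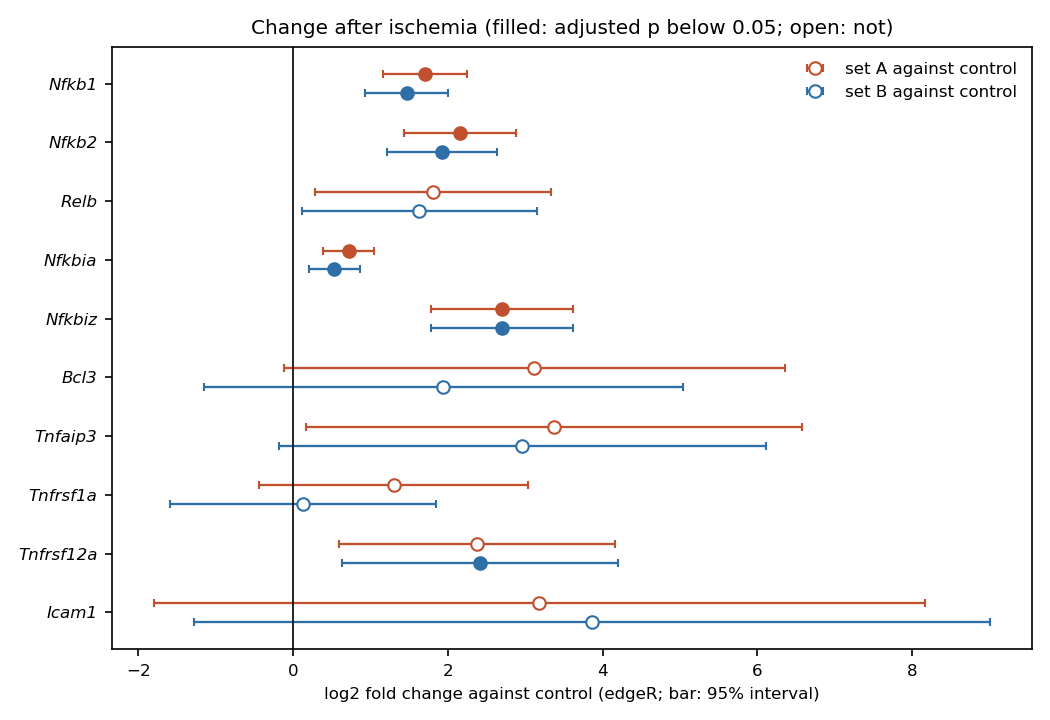
Log2 fold change of the 10 genes in set A (red) and set B (blue) against the same 4 controls, with 95% intervals from edgeR. Filled points passed the adjusted p threshold of 0.05. Intervals are narrow for Nfkb1, Nfkb2 and Nfkbia and widest for Icam1, whose set A interval runs from −1.80 to 8.16.

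Counted by kidneys in place of the model, 6 of the 10 genes in set A (Nfkb1, Nfkb2, Nfkbia, Nfkbiz, Tnfaip3 and Tnfrsf12a) and 5 in set B (the same without Nfkbia) had all 4 ischemic kidneys above all 4 controls. Among all genes tested this held for 12.6% (set A) and 11.6% (set B). Tnfaip3 had 1 control above the cutoff of the filter and was tested through its ischemic kidneys, which favours such a pattern. For each of these, the exact two-sided permutation test on CPM gave p = 0.0286, the smallest that 4 kidneys against 4 allow, and 0.078 after adjustment over the 30 tests made.

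The 10 genes did not move as 1 unit from kidney to kidney. Set A kidney 1 held the highest level of 4 of them (Nfkb2, Nfkbia, Tnfaip3 and Tnfrsf12a) and yet had Relb within the control range. Kidneys 2 and 3 of set A had all 10 above every control, and the other ischemic kidneys had 7 to 9. The median deviation from the control mean, on the log2 scale, was 2.58, 2.69, 2.62 and 1.65 in set A kidneys 1 to 4 and 1.44, 1.95, 1.75 and 1.91 in set B, so that 3 kidneys of set A exceeded every kidney of set B. Set B had the shallower libraries, with a median total of 18181498 counts against 27158370 in set A. Nfkbia was the most even gene over the 8 ischemic kidneys (highest 1.38 times the lowest), followed by Nfkb1 (1.58) and Nfkb2 (1.79). Relb ranged 8.65-fold, and the coefficient of variation was highest for Icam1 (133%) and Bcl3 (74.8%), each with at least 1 ischemic kidney at 0.

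**Figure D3:**
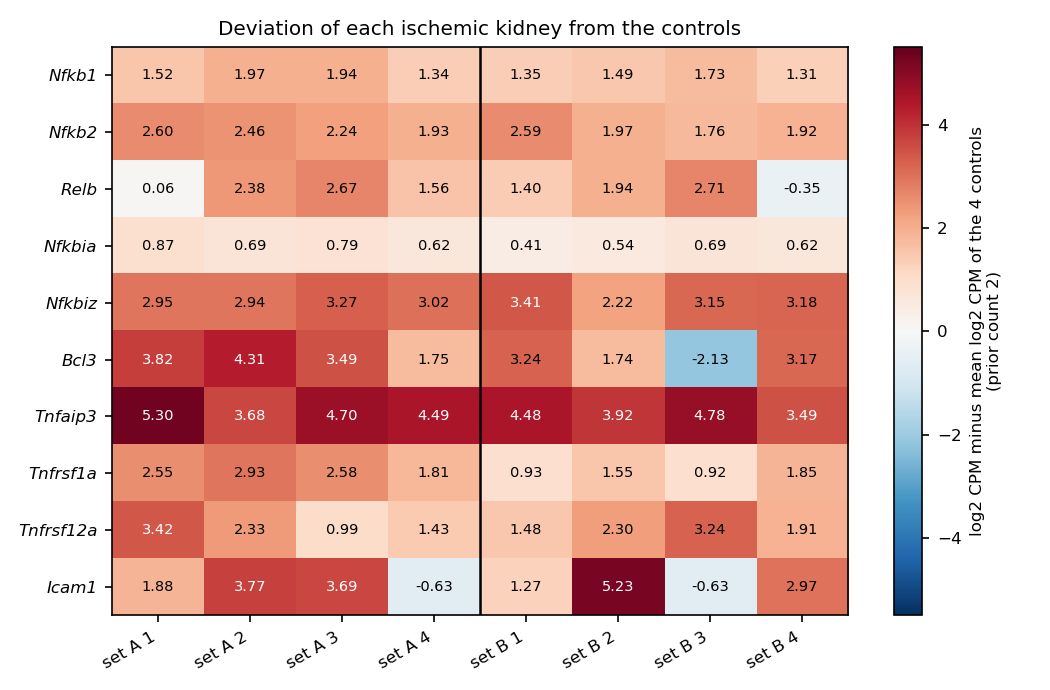
Deviation of each of the 8 ischemic kidneys from the mean of the 4 controls, in log2 CPM with a prior count of 2, for each of the 10 genes. Red is above and blue below the controls, and the black line divides set A from set B. Nfkb1, Nfkb2, Nfkbia and Nfkbiz are above 0 in every column, while Relb, Bcl3 and Icam1 each have at least 1 kidney below 0.

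The comparison of set B with set A asks whether the state of the mouse during clamping altered these genes, although the labels do not settle which set was anaesthetised. None of the 10 genes differed, and among all 11664 genes 1 passed the test (0.00857%), while 587 had an unadjusted p below 0.05. DESeq2 called none of the 10 either. The log2 differences, set B minus set A, were −0.24 for Nfkb1 (95% interval −0.76 to 0.29), −0.23 for Nfkb2 (−0.92 to 0.45), −0.18 for Nfkbia (−0.52 to 0.15) and 0.00 for Nfkbiz (−0.85 to 0.86). For these 4 genes, a 2-fold difference in either direction lies outside the interval. The remaining genes were less well bounded. Tnfrsf1a was at 11.8 ± 3.49 CPM in set A against 5.24 ± 1.73 CPM in set B (SD, n = 4), a log2 difference of −1.17 (−2.90 to 0.56), and Tnfrsf12a gave 0.03 (−1.65 to 1.72).

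Levels of different genes can be compared only per length, here as RPKM, which is CPM divided by the length of the annotated exons in kilobases. In the controls, Nfkbia was at 64.6 RPKM, and Nfkb2 (2.39), Tnfrsf1a (1.85), Nfkbiz (1.42) and Nfkb1 (0.854) followed far below. Relb (0.598), Tnfrsf12a (0.484), Bcl3 (0.178), Tnfaip3 (0.0512) and Icam1 (0.0199) were lower still. In set A the order began with Nfkbia at 106 RPKM, Nfkb2 at 10.6 and Nfkbiz at 9.19, and in set B with Nfkbia at 93.6, Nfkbiz at 9.21 and Nfkb2 at 9.04. Nfkbiz and Tnfrsf1a did not differ beyond the spread between kidneys in the controls, and neither did Nfkbiz and Nfkb2 in either ischemic set. The gene closest to each member over the 8 ischemic kidneys, by root mean square difference in log2 deviation, was Ppp1r9b for Nfkbia (0.109), Vars for Nfkb1 (0.17), Epha2 for Nfkbiz (0.25) and Msn for Nfkb2 (0.283). For the scarcer members the closest genes were more distant, at 0.375 (Nav3 for Tnfrsf1a) to 1.04 (Cdc7 for Icam1).

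The wider pathway was examined with 7 lists of 109 genes that include the 10. Of these genes, 108 were in the table and 57 were tested. In set A 13 rose and 4 fell, or 22.8% and 7.02% of those tested, and in set B 14 rose and 4 fell, or 24.6% and 7.02%. Without the 10 genes, 9 of 47 rose (19.1%) and 4 fell (8.51%) in each set, beside 10.5% and 11.7% over all genes for set A and 10.9% and 11.9% for set B. Of these 47, 19 had fewer than 4 controls above the cutoff of the filter and passed with the help of ischemic kidneys, which favours rises among them. No listed gene differed between set B and set A.

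**Figure D4:**
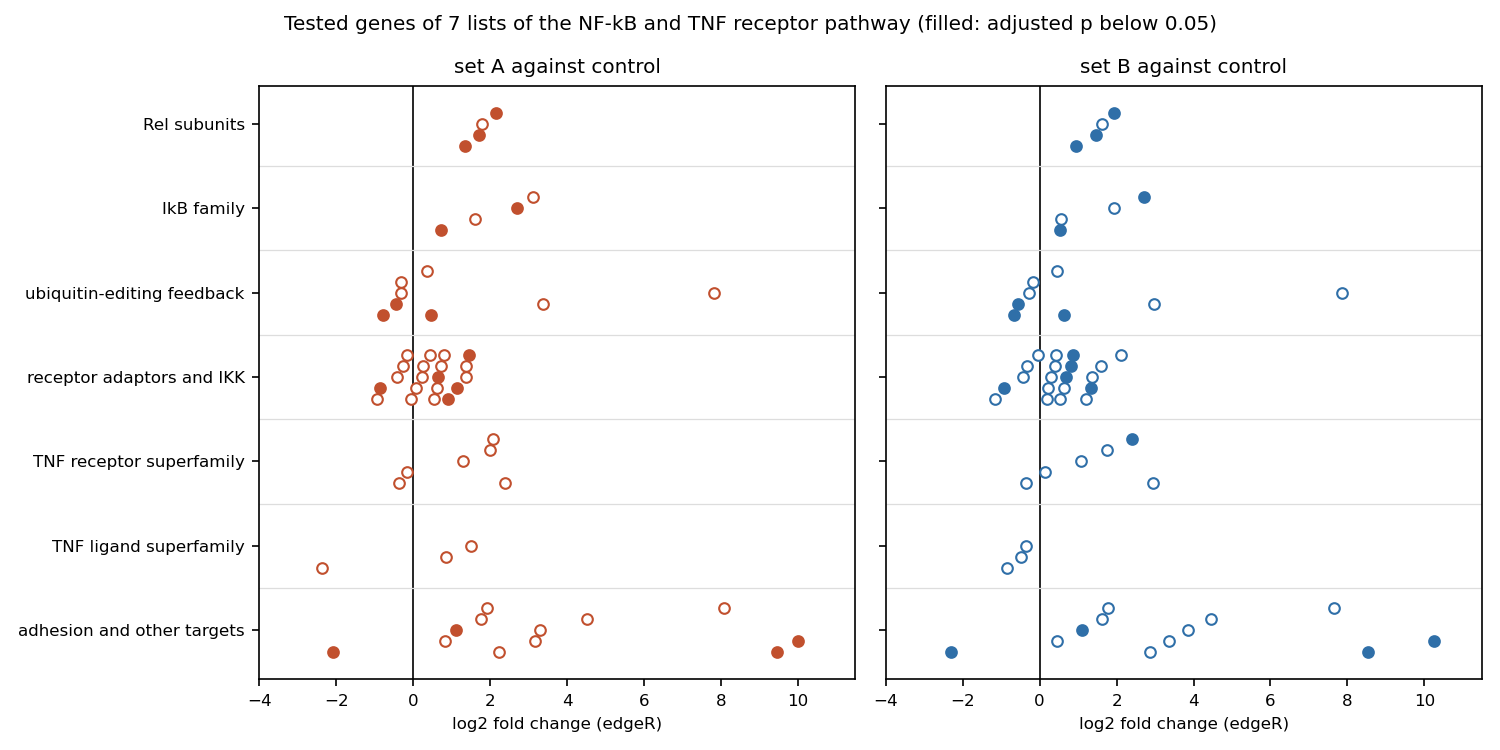
Log2 fold change of the 57 tested genes of the 7 pathway lists, in set A (left) and set B (right) against the controls. Each point is a gene, and filled points passed the adjusted p threshold of 0.05. The tested Rel subunits and IkB-family genes lie to the right of 0 in both sets, while the adaptor and ubiquitin-editing lists lie on both sides.

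Most ligands had few or no counts. Of 18 genes of the TNF ligand superfamily, 13 had at most 3 counts in every kidney and 3 were tested, with none passing. Tnf itself had 0 counts in all 12 kidneys, which by counting error alone allows at most 0.19 CPM in the shallowest library. The blood markers Hba-a1 and Hba-a2 and the pan-leukocyte marker Cd52 also had 0 counts in all 12 kidneys. A count of 0 here thus need not mean that a transcript was absent, and the cause of these zeros was not tested. Tnfsf12, the gene of TWEAK, had 43 counts in control 1, 47 and 101 counts in set A kidneys 1 and 2, 33 counts in set B kidney 1 and 0 in the rest. It shares 48.3% of its exon bases with the readthrough gene Tnfsfm13, so that its counts are uncertain. Of 28 receptors of the superfamily 6 were tested, and Tnfrsf12a in set B was the only one that passed. Tnfrsf1b, which encodes TNFR2, had 27 counts in control 3, 1 in set A kidney 3, 100 in set B kidney 4 and 0 in the other 9, and was not tested.

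Among the 20 tested receptor adaptors and IKK genes, 4 rose and 1 fell in each set. Traf3, which restrains the non-canonical branch, went from a control mean of 75.6 ± 6.39 CPM to 207.9 ± 12.7 CPM (set A) and 191.1 ± 31.4 CPM (set B) (log2 1.46 and 1.34, adjusted p = 2.36e-07 and 7.27e-07). Map3k14, the gene of the NF-kB-inducing kinase that Traf3 protein targets for degradation, averaged 11.8 ± 2.13, 22.1 ± 5.08 and 21.5 ± 4.92 CPM in the controls, set A and set B (adjusted p = 0.0298 and 0.0365). These calls of Map3k14 were lost in 5 of the 8 fits of each set that left out a library, with adjusted p up to 0.122. The 3 subunits of IKK moved in opposite directions. Chuk, the gene of IKK alpha, fell from 512.5 ± 58.7 CPM to 279.9 ± 42.9 CPM (set A) and 271.1 ± 55.1 CPM (set B) (adjusted p = 0.000298 and 0.000178). Ikbkg, the gene of the scaffold NEMO, which shares 5.15% of its exon bases with the opposite-strand gene G6pdx, rose by 1.14 and 0.80 on the log2 scale (adjusted p = 0.000929 and 0.0145), the latter at an adjusted p of 0.0522 without control 1. Ikbkb, the gene of IKK beta, was named after its values were seen and rose by 0.65 and 0.68 (adjusted p = 0.00912 and 0.00645).

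In the ubiquitin-editing list that holds Tnfaip3, 1 of 8 tested genes rose and 2 fell in each set. Otud7b, which encodes the deubiquitinase Cezanne, rose by 0.47 in set A (adjusted p = 0.0184) and 0.64 in set B (adjusted p = 0.00214). Itch, an E3 ligase gene, fell by 0.78 and 0.67 (adjusted p = 0.000233 and 0.000999), and Tax1bp1, an A20-binding adaptor gene, fell by 0.45 and 0.57 (adjusted p = 0.0391 and 0.00871), all on the log2 scale. The set A calls of Otud7b and Tax1bp1 were lost in 3 and 5 of the 8 fits that left out a library, with adjusted p up to 0.0932 and 0.14.

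Among 12 tested targets, the list that holds Icam1, 3 rose and 1 fell in each set. Lcn2, the gene of the tubular injury marker NGAL, had 1 count in 1 control and 0 in the other 3, and reached means of 13.02 ± 7.42 CPM (set A) and 15.3 ± 8.50 CPM (set B), which were at least 125-fold and 147-fold higher than the limit of 3 counts per library (adjusted p = 8.14e-08 and 6.75e-08). Plaur, the gene of the urokinase receptor, had 0 counts in every control, 3.046, 8.213, 0.947 and 0.843 CPM in set A kidneys 1 to 4 and 1.953, 3.984, 0 and 1.015 CPM in set B (adjusted p = 0.00542 and 0.00858). Bcl2l1, the gene of the survival protein Bcl-xL, rose from 152.9 ± 13.3 CPM to 331.1 ± 68.3 and 328.6 ± 37.6 CPM (adjusted p = 8.36e-06 and 9.71e-06). Sod2, the gene of mitochondrial superoxide dismutase, fell from 884.6 ± 139.0 CPM to 209.1 ± 50.7 CPM (set A) and 180.6 ± 44.2 CPM (set B) (adjusted p = 9.6e-08 and 3.07e-08). Sod2 is a known target of NF-kB and went the opposite way from Lcn2 and Bcl2l1.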

How the data were processed

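RNA from 12 whole kidneys was prepared by the authors with a stranded poly(A) kit and sequenced in single reads. Per the labels and the study's methods, the reads were checked with FastQC, aligned to mm10 with STAR and counted with HTSeq, and edgeR is named in the submitters' processing notes. Versions, annotation release and strand setting are not given in the sources used here. The deposited file holds the authors' raw counts per gene, without normalisation.

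All 12 libraries entered 1 edgeR 4.0.16 fit (R 4.3.3), with its default filter (minimum count 10, minimum total 15), TMM factors (0.968 to 1.03) and the quasi-likelihood F-test. The common biological coefficient of variation was 0.762. SE was the log2 fold change divided by the square root of F. Permutation tests were exact and two-sided. Alternatives were DESeq2 1.42.0, RLE size factors, no filter, a filter that asked for over 1 CPM in 4 kidneys, fits of the 2 groups compared, a replicate block and fits without 1 library. The fit was also run on simulated counts, and the outcome is not reported here. Exon lengths and overlaps came from GENCODE M21 and promoters from RefSeq.

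The members, pathway lists and marker lists were chosen with earlier results of these data known. Beside the members, the text names pathway genes that were called alike in both sets and were among the 3 largest rises or falls of their list, plus Rela, Rel, Tnf, Tnfrsf1b and Tnfsf12. Ikbkb and Psd fall outside this rule and were named after their values were seen. The p-values of the fit test a difference between groups against the spread between kidneys, estimated over all groups and moderated across genes. Replicate numbers come from the titles. Count limits cover counting error only. No 2 libraries of a group agreed within sampling noise. Other marker lists were checked: 1 of 3 thick ascending limb markers fell in both sets, 2 of 4 distal and collecting duct markers fell in set A (1 of them in set B), 1 of 5 tested endothelial markers fell in set B, the 1 lymphocyte marker tested (of 7) fell in both sets, the 1 blood marker tested (of 3 measured) fell in set B, and no fat or adrenal marker had enough counts to be tested.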

Additional observations from a re-analysis of the deposited data

Results flagged for a closer look

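In groups of 4 kidneys, the gap of a value to the nearest of the others was divided by the range of the group. A value is picked out here when this ratio is above Dixon's critical value. For normally distributed values, chance alone gives this in about 5% of groups. Of 30 groups tested (10 genes in 3 groups), 2 were picked out, both in the controls. Tnfaip3 was at 1.48 CPM (57 counts) in control 2 and at 0 counts in the other 3 controls. Icam1 was at 0.347 CPM (9 counts) in control 3 and at 0 counts in the other 3. With the other 3 controls at 0, any count above 0 is picked out, so the rate of 5% does not apply to these 2 groups.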

How the results depend on the processing

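Nfkb1, Nfkb2 and Nfkbiz in both sets and Nfkbia in set A kept their calls and directions under all 14 alternatives run. The number of the 10 genes that changed in set A was 7 with DESeq2, which added Relb, Tnfaip3 and Tnfrsf12a, against 4 in the edgeR fit. In set B it ranged from 3 to 6 when 1 library was left out (3 without control 3, control 4 or set B kidney 3), against 5. Pathway genes changed in set A numbered 26 with DESeq2 against 17. Genes that differed between set B and set A numbered 27 with DESeq2, 6 without the filter on low counts, 0 with only these 2 groups in the fit and 0 to 7 when 1 library was left out, against 1. Small differences between set B and set A turned sign. Nfkbiz was at −0.00208 with only the 2 groups and ranged from −0.141 to 0.198 when 1 library was left out, Relb from −0.687 to 0.164, Tnfrsf12a from −0.429 to 0.703 and Icam1 from −1.25 to 1.15, while Tnfrsf1a in set B against the controls ranged from −0.301 to 0.449. The cause of these turns was not tested. Of the values recomputed for single genes, 686 kept their direction and call, 37 lost a call, 11 gained one and 16 turned sign. Same-numbered kidneys did not deviate together (correlations of −0.0554 to 0.0452 over 12 pairs). Noise between kidneys can hide a shared deviation, so this check cannot tell whether the numbers pair the samples. A replicate block left 4 of the 10 genes changed in each set, with Tnfrsf12a in set B at an adjusted p of 0.0863 and Nfkbiz at −0.0843 between the sets, and Tax1bp1 in set A lost its call at 0.0593. Depth sets a floor, since 3 counts correspond to 0.0661 to 0.19 CPM.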
